A study of Mus musculus with 16 samples.

Results

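*Ighm*, the gene for the constant region of the immunoglobulin M (IgM) heavy chain, was described here with 6 genes of B cells and antigen presentation in mouse quadriceps muscle: *Ighd*, *Igkc*, *Cd79a*, *Cd79b*, *Ms4a1* and *Cd74*. The 7 genes were taken by symbol from a table of raw counts for 41388 genes, and 6 of them had a row, with *Ighd* not analysed here. *Ighm* was chosen by its loss across these same libraries, and the others as markers to set beside it with results of these data known. The values of the 6 genes are therefore given as a description, without p values, and whether they passed the threshold of the fit over all genes is given once and supports nothing.

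The libraries were made from total RNA of quadriceps of C57BL/6 mice at 36 days of age, from wild type mice (WT) and from mice with a targeted deletion of exon 4 of *Mtm1* (*Mtm1* KO), a model of X-linked myotubular myopathy. Mice of either genotype were untreated or received tamoxifen (TAM), a selective estrogen receptor modulator, in the chow at 40 mg/kg from 21 days of age (WT + TAM and *Mtm1* KO + TAM). The deletion is present in every cell of the animal, so muscle and immune cells alike lack the exon. There were 4 libraries per group, each from 1 mouse, with totals of 25116179 to 29847222 counts. The 14 libraries used were 3 of WT, 4 of WT + TAM, 3 of *Mtm1* KO and 4 of *Mtm1* KO + TAM, the same ones that were analysed originally. *Mtm1* had 282 to 459 counts in the WT and WT + TAM libraries used and 53 to 97 in all libraries labelled *Mtm1* KO or *Mtm1* KO + TAM. The library labelled WT replicate 1 had 74 *Mtm1* counts, which goes against its label, and it and KO replicate 12 are outside the 14. Their values are given where they bear on a result.

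B cells make antibodies from immunoglobulin heavy and light chains. In a B cell precursor, V, D and J gene segments are joined in front of the *Ighm* constant exons, and the first antibody made is IgM. Alternative ends of the *Ighm* transcript give either a secreted antibody or a membrane-bound receptor, which signals through CD79A and CD79B. B cells also present peptides on major histocompatibility complex (MHC) class II, whose assembly needs the invariant chain CD74, as do macrophages and dendritic cells. Resting skeletal muscle is known to hold few B cells.

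*Ighm* (ENSMUSG00000076617) lies on the minus strand at chr12:113418558-113422730 (GRCm38, GENCODE vM21), and no other annotated gene overlaps it. Its neighbours are *Ighd*, 2233 bases away, and the last heavy chain J segment, *Ighj4*, 5783 bases away. The annotation has 2 transcripts, Ighm-201 for the secreted form (1493 bases in 4 exons) and Ighm-202 for the membrane form (1698 bases in 6 exons). The sequences that tell the forms apart are shown because a gene count can add both together. Each line reads 5′ to 3′ on the minus strand, and starts with the last 30 shared bases of exon 4 (chr12:113420929-113420958) in lower case. Capitals mark what differs, which is the coding tail in exon 4 of Ighm-201 (59 bases, chr12:113420870-113420928) and the coding exon 5 of Ighm-202 (116 bases, chr12:113418953-113419068).
secreted tail: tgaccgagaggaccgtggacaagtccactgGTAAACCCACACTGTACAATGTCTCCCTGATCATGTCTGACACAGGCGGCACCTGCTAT
membrane exon: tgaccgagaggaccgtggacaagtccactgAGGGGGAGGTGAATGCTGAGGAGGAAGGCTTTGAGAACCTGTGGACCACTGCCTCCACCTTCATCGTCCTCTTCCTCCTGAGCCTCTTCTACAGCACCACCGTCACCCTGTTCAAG
None of the 1837 stretches of 50 bases in the *Ighm* transcripts occurred in another annotated transcript. The deposited RPKM (counts scaled by gene length and library size) implied a length of 1486 bases for *Ighm*. This is near the 1493 bases of Ighm-201 and under the 1886 bases of all annotated *Ighm* exons together. Whether reads on the membrane exons were counted was not tested. The deposited values do not separate the secreted from the membrane form.

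*Ighm* was highest in WT, lower in WT + TAM, lower again in *Mtm1* KO and lowest in *Mtm1* KO + TAM. Its raw counts in WT were 3258, 1621 and 3103 in replicates 2 to 4. In WT + TAM they were 558, 780, 879 and 947 in replicates 5 to 8. In *Mtm1* KO they were 478, 853 and 255 in replicates 9 to 11. All 4 *Mtm1* KO + TAM libraries lay near the bottom of the *Mtm1* KO range or under it, at 186, 180, 181 and 305 counts in replicates 13 to 16. Of the libraries left out, the one labelled WT replicate 1 had 1590 counts and KO replicate 12 had 375, each near the others with its label, although *Mtm1* in the former was at the *Mtm1* KO level.

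Scaled by library size (CPM, with factors from the trimmed mean of M values, TMM), WT libraries had a mean *Ighm* level of 102.3 ± 28.39 (SD, n = 3) and those of WT + TAM one of 33.05 ± 6.868 (SD, n = 4). The level was 17.34 ± 9.906 for *Mtm1* KO (SD, n = 3) and 6.755 ± 2.336 for *Mtm1* KO + TAM (SD, n = 4). The ranges of WT + TAM (24.0 to 39.5 CPM) and *Mtm1* KO (8.15 to 27.8) overlapped through KO replicate 10, and those of *Mtm1* KO and *Mtm1* KO + TAM (5.19 to 10.2) overlapped through KO replicate 11 and KO_TAM replicate 16. These neighbours in the order therefore did not separate beyond their spread, while the other pairs of groups did not overlap. In bulk muscle, fewer cells that carry a transcript and less of it per cell cannot be told apart.

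**Figure D1:**
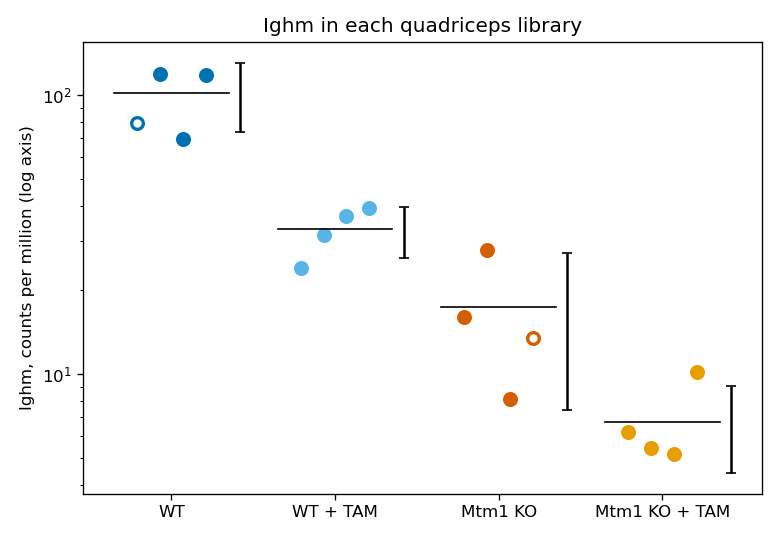
*Ighm* in CPM on a log axis (TMM scaling) in each library of the 4 groups, with filled points for the 14 libraries used, open points for the library labelled WT replicate 1 and for KO replicate 12, horizontal lines at the mean and bars of 1 SD over the filled points. All WT libraries lie at 69.5 CPM or above and all *Mtm1* KO + TAM libraries at or below 10.2 CPM.

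The mean of *Ighm* in *Mtm1* KO was 16.9% of that in WT, 5.90-fold lower. With tamoxifen in WT mice it was 3.10-fold lower than in untreated WT, and in *Mtm1* KO + TAM 2.57-fold lower than in *Mtm1* KO. Across both differences, *Mtm1* KO + TAM was 15.1-fold lower than WT. Between the treated groups, *Mtm1* KO + TAM was 4.89-fold lower than WT + TAM. The mean was thus lower in the knockout with or without the drug, and lower with the drug in either genotype.

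As log2 fold changes fitted by edgeR, *Ighm* differed by -2.56 (standard error 0.41) between *Mtm1* KO and WT and by -1.65 (standard error 0.23) between WT + TAM and WT. The difference was -1.38 (standard error 0.36) between *Mtm1* KO + TAM and *Mtm1* KO, -2.31 (0.23) between *Mtm1* KO + TAM and WT + TAM, and -3.96 (0.27) between *Mtm1* KO + TAM and WT. The difference between the tamoxifen effects in the 2 genotypes was 0.27 with a standard error of 0.48. Leaving out KO replicate 10 moved the difference between *Mtm1* KO + TAM and *Mtm1* KO most, to -0.85, and that between *Mtm1* KO and WT to -3.09. *Ighm* was lower in the first group of each of the 5 comparisons under every scaling and every library left out.

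3 of the 6 genes with a row, *Ighm*, *Cd79b* and *Cd74*, passed the filter on low counts in every comparison, and *Igkc*, *Cd79a* and *Ms4a1* in none. At an adjusted p of 0.01 or lower in edgeR's quasi-likelihood test, 1 of the 3, *Ighm*, was called between *Mtm1* KO and WT, where 3.60% of the tested genes were called. *Ighm* was also the 1 called between *Mtm1* KO + TAM and WT (7.70% of tested genes) and between *Mtm1* KO + TAM and WT + TAM (6.72%). Members called by this test numbered 0 between WT + TAM and WT (0.131%), between *Mtm1* KO + TAM and *Mtm1* KO (0%, with 1137 genes at an unadjusted p under 0.05 and 72 called by DESeq2) and for the difference between the tamoxifen effects (0%, with 664 and 12). Since the rule used these same columns, nothing is read from the counts of members. DESeq2 called 3 between *Mtm1* KO and WT (1678 of 14740 genes in all) and 1 between WT + TAM and WT (214 of 14544). It called 2 between *Mtm1* KO + TAM and WT (2375 of 14942 genes) and 2 between the treated groups (1995 genes). With either pseudocount, limma on log2 RPKM called 0 between *Mtm1* KO and WT (824 or 756 genes in all) and 0 between WT + TAM and WT (15). In either comparison of *Mtm1* KO + TAM with a WT group limma called 2, but its totals over all genes are not given here, so nothing is read from this. For *Mtm1* KO against WT, edgeR called 2 with library size only (1163 genes in all) and 3 without a filter (1096 genes). At an adjusted p of 0.05 it called 2 (1885 genes). Between *Mtm1* KO and WT edgeR called no member without WT replicate 2, without WT replicate 4 or without KO replicate 11, where 263, 194 and 182 genes were called in all, against 531 with every library. Between WT + TAM and WT 1 was called without WT replicate 3 (12 genes in all). Between the treated groups 2 were called without WT_TAM replicate 5 or 6, where leaving out any 1 library gave 424 to 921 genes in all.

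The light chain gene *Igkc* (ENSMUSG00000076609, chromosome 6, 70726435 to 70726966, plus strand), which encodes the kappa constant region that pairs with the heavy chain, was near the bottom of detection in most libraries. Its counts were 44, 1 and 3 in WT and 2, 1, 0 and 0 in WT + TAM. They were 8, 107 and 0 in *Mtm1* KO and 5, 2, 3 and 2 in *Mtm1* KO + TAM. The values above 10 in the 14 libraries thus came from WT replicate 2 and KO replicate 10, and all pairs of groups overlapped. *Igkc* overlaps *Gm30211* on the same strand in GENCODE vM21. How reads in the overlap were counted is not given in the sources used, so the *Igkc* counts are uncertain there.

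In RPKM, which allows levels of different genes to be compared per length, *Ighm* stood at 64.23 ± 21.39 and *Igkc* at 1.752 ± 2.648 in WT (SD, n = 3). In WT + TAM the levels were 20.39 ± 4.446 for *Ighm* and 0.0885 ± 0.114 for *Igkc* (SD, n = 4). In these groups the heavy chain constant region was thus measured far above the kappa constant region per length, and *Igkc* was at 0 counts in WT_TAM replicates 7 and 8, which had 879 and 947 *Ighm* counts. A count of 0 allows up to 3 counts. The part of the overlap with *Gm30211* in the *Igkc* level was not tested.

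The variable segments, which encode the antigen-binding ends of the chains, were hardly counted. All 114 heavy chain V segments (Ighv) with a row together had 35 counts over the 16 libraries, and 101 of them had none. Their sum per library was at most 9, in KO replicate 10, and 0 to 2 in the WT libraries used, which held 1621 to 3258 *Ighm* counts. Those with the highest means over the 14 libraries were *Ighv11-2* (6 counts in all, 4 of them in WT_TAM replicate 7), *Ighv9-1* (6, all in KO replicate 10) and *Ighv1-58* (4, all in KO_TAM replicate 15). The 105 kappa V segments (Igkv) had 90 counts, and 78 of them had none. *Igkv6-20* (19 counts) and *Igkv8-28* (11) were seen in WT replicate 2 alone among the 14 libraries used, and *Igkv6-15* had 5 counts, 4 of them in WT replicate 3. The 20 D segments had 0 counts and the 4 heavy chain J segments 5 over the 16 libraries. A V segment is 1 part of a rearranged heavy or kappa chain transcript. The sums are a description and get no test, and whether the counted *Ighm* RNA was rearranged was not tested.

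*Cd79a* (ENSMUSG00000003379, chromosome 7, 24897381 to 24902197, plus strand) and *Cd79b* (ENSMUSG00000040592, chromosome 11, 106311341 to 106314762, minus strand) encode the signaling chains of the B cell receptor. *Cd79a* had 6, 2 and 2 counts in WT and 0, 4, 4 and 7 in WT + TAM. In *Mtm1* KO it had 3, 167 and 9 counts, and in *Mtm1* KO + TAM 2, 4, 2 and 2. Apart from KO replicate 10, the 14 libraries held at most 9 counts and the groups overlapped. Of the 50-base stretches of *Cd79a*, 8.31% are shared with another gene, mostly *Gm32220*.

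*Cd79b* had 12, 2 and 2 counts in WT and 12, 10, 14 and 16 in WT + TAM. In *Mtm1* KO it had 27, 152 and 20 counts, and in *Mtm1* KO + TAM 34, 16, 10 and 12. Against WT it was higher in *Mtm1* KO, with no overlap between the libraries used, but the library labelled WT replicate 1, with 27 counts, lay inside the *Mtm1* KO range. The log2 fold change between *Mtm1* KO and WT was 3.39 (standard error 0.96), and it was 1.89 without KO replicate 10, 4.68 without WT replicate 2, 2.03 with all 16 libraries and 1.06 by limma on log2(RPKM + 1). Between *Mtm1* KO + TAM and *Mtm1* KO it was -1.94 (standard error 0.71), and -0.43 without KO replicate 10. Between WT + TAM and WT it was 1.38 (standard error 0.65), and it was 2.68 without WT replicate 2, 0.18 with all 16 libraries and 0.26 on log2(RPKM + 1). In *Mtm1* KO + TAM against WT + TAM it was 0.06 (standard error 0.47).

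*Ms4a1* (ENSMUSG00000024673, chromosome 19, 11249675 to 11266241, minus strand), which encodes the B cell surface protein CD20, was seen in few libraries. It had 1, 0 and 0 counts in WT, 0, 0, 0 and 1 in WT + TAM, 2, 18 and 0 in *Mtm1* KO and 0, 7, 0 and 1 in *Mtm1* KO + TAM. Thus 8 of the 14 libraries were at 0, and the highest count was again in KO replicate 10. *Ms4a1* overlaps *4930526L06Rik* on the other strand, and 1.21% of its stretches are shared with another gene.

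*Cd74* (ENSMUSG00000024610, chromosome 18, 60803848 to 60812652, plus strand) was abundant and ran the other way from *Ighm* between the genotypes. Its counts were 2050, 1360 and 2434 in WT and 1879, 518, 1331 and 1277 in WT + TAM. In *Mtm1* KO they were 3620, 6614 and 6750, and in *Mtm1* KO + TAM 4427, 3914, 4322 and 3032. Every library of either knockout group lay above every WT and WT + TAM library, and KO replicate 12, left out of the groups, was highest at 9974 counts.

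For *Cd74* the mean level in CPM was 75.33 ± 17.16 among WT libraries (SD, n = 3) and 52.83 ± 24.6 among those of WT + TAM (SD, n = 4). It was 184.4 ± 54.52 for *Mtm1* KO (SD, n = 3) and 122.8 ± 19.24 for *Mtm1* KO + TAM (SD, n = 4). The mean in *Mtm1* KO was 2.45-fold that in WT. The fitted log2 fold change was 1.29 (standard error 0.26) between *Mtm1* KO and WT, and 1.17 without KO replicate 10. It was 1.20 (0.31) between *Mtm1* KO + TAM and WT + TAM, and 0.67 (0.18) between *Mtm1* KO + TAM and WT. Between *Mtm1* KO + TAM and *Mtm1* KO it was -0.61 (0.21), and -0.47 without KO replicate 10. Between WT + TAM and WT it was -0.52 (0.36), and -0.25 without WT_TAM replicate 6. The ranges of the treated and untreated group overlapped within either genotype.

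**Figure D2:**
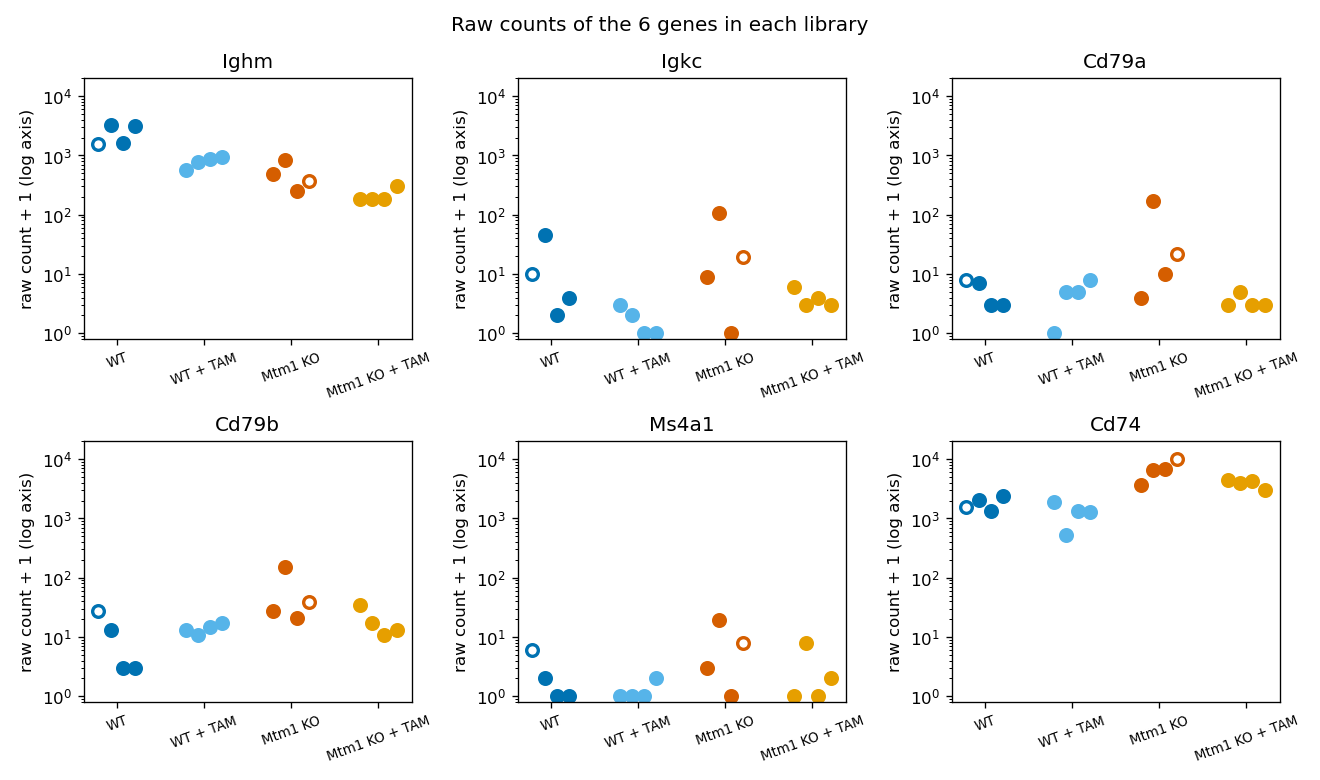
Raw counts plus 1, on log axes, of *Ighm*, *Igkc*, *Cd79a*, *Cd79b*, *Ms4a1* and *Cd74* in each library, with filled points for the 14 libraries used and open points for the library labelled WT replicate 1 and KO replicate 12. *Igkc*, *Cd79a*, *Cd79b* and *Ms4a1* are highest in KO replicate 10, at 107, 167, 152 and 18 counts, where *Ighm* has 853.

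Between *Mtm1* KO and WT, 3 of the 6 genes did not overlap between the groups (*Ighm* lower, *Cd79b* and *Cd74* higher), where 35.7% of the tested genes did not. In *Mtm1* KO + TAM against WT the count was 2 (*Ighm* and *Cd74*, with 31.2% of tested genes), and it was the same 2 against WT + TAM (22.4%). It was 1, *Ighm*, in WT + TAM against WT (11.2%) and 0 in *Mtm1* KO + TAM against *Mtm1* KO (7.69%). Because the rule used these columns, these shares are given as background and nothing is read from them.

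Set against *Cd79b* within each library, *Ighm* had 271.5 to 1552 counts per *Cd79b* count in WT. The ratio was 46.5 to 78.0 in WT + TAM, 5.61 to 17.7 in *Mtm1* KO and 5.47 to 25.4 in *Mtm1* KO + TAM. WT, WT + TAM and the 2 knockout groups did not overlap in this ratio, and the knockout groups overlapped with each other. The genes were chosen for loss of *Ighm* against such markers in these same libraries, so the separation is a description. Without KO replicate 10 the *Mtm1* KO range was 12.75 to 17.7. The ratio rests on as few as 2 *Cd79b* counts in WT, and the library labelled WT replicate 1 stood at 58.9, within the WT + TAM range.

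A list of 22 other B cell genes was set beside *Ighm*. Of these, 5 were tested in each pairwise comparison (6 between *Mtm1* KO + TAM and *Mtm1* KO), and edgeR's quasi-likelihood test called 0 in any, with 0 at an unadjusted p under 0.05 between *Mtm1* KO and WT, 1 between WT + TAM and WT, 1 between *Mtm1* KO + TAM and *Mtm1* KO, 0 between *Mtm1* KO + TAM and WT and 1 between *Mtm1* KO + TAM and WT + TAM. The median log2 fold change was 0.77 between *Mtm1* KO and WT (3 of 5 higher), beside 0.02 over all tested genes, and -0.01 between WT + TAM and WT (2 of 5 higher), beside -0.00 over all tested genes. Genes of low counts can pass the filter through the group where they are high, so the medians are a description.

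The most abundant gene of the list was *Cd55*, a complement inhibitor that many cell types express, and next *Cd37*, a leukocyte tetraspanin. *Cd55* had a log2 fold change of -0.77 between WT + TAM and WT (standard error 0.13, edgeR adjusted p = 0.0424) and -0.07 between *Mtm1* KO and WT (standard error 0.16, adjusted p = 0.826). *Cd37* stood at 0.92 between *Mtm1* KO and WT (standard error 0.42, edgeR adjusted p = 0.175) and at -0.01 between WT + TAM and WT (0.43, adjusted p = 0.993). Neither passed 0.01 in any comparison.

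Without *Cd55*, the summed count of the other 21 genes was 105 to 179 in WT, 85 to 186 in WT + TAM, 203 to 292 in *Mtm1* KO + TAM and 167 to 1237 in *Mtm1* KO, where the upper end was KO replicate 10. The libraries with the fewest *Ighm* counts did not have the lowest sums. In raw counts the knockout libraries other than KO replicate 9 all lay above the WT libraries used. In CPM the gap was narrow, with 6.59 in KO replicate 11 and 6.55 in WT replicate 2, and WT_TAM replicate 5 reached 8.01. The library labelled WT replicate 1 had 208 counts (10.4 CPM), and KO replicate 12 had 349 (12.5 CPM). *Ighm* had 12.3 to 29.6 counts per count of these 21 genes in WT, 3 to 9.18 in WT + TAM, 0.690 to 2.86 in *Mtm1* KO and 0.620 to 1.50 in *Mtm1* KO + TAM.

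**Figure D3:**
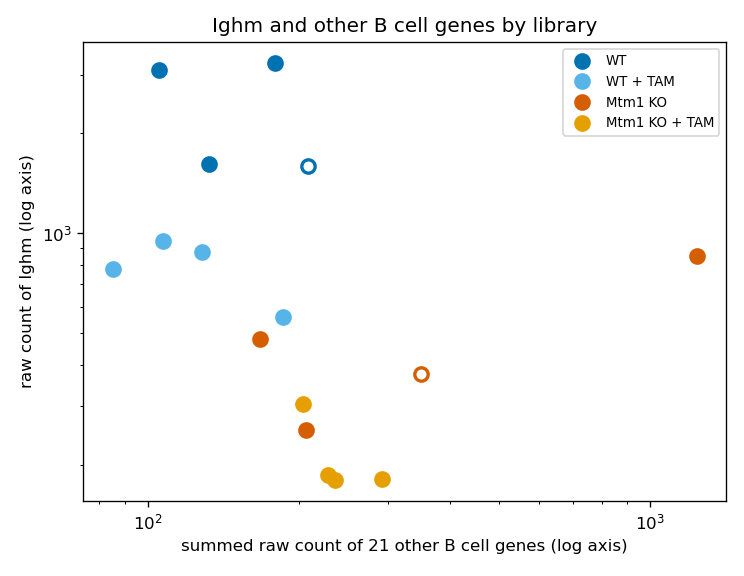
Raw count of *Ighm* against the summed raw count of 21 other B cell genes, both on log axes, with 1 point per library (filled for the 14 used, open for the library labelled WT replicate 1 and KO replicate 12). The WT libraries used lie at 105 to 179 on the horizontal axis with 1621 to 3258 *Ighm* counts, and KO replicate 10 stands apart at 1237 with 853.

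KO replicate 10 stood apart in other cell markers too, which are named here after their values were seen. *Rag1*, a recombinase of B and T cell precursors, had 52 counts there and 0 in the other 15 libraries. The B cell genes *Pax5*, *Spib* and *Vpreb3* had 89, 115 and 111 counts in KO replicate 10 and at most 15, 18 and 7 in any other library. Neutrophil genes were also high there, with *S100a9* at 922 counts (1 to 20 elsewhere), *Ngp* at 865 (0 to 5) and *Mpo* at 142 (0 to 4). The summed neutrophil list (8 genes) reached 3095 counts in this library against 18 at the lowest of the *Mtm1* KO group and 5 to 110 in the other groups. The red cell membrane gene *Slc4a1* had 184 counts there and at most 11 elsewhere. *Ighm* in this library was the highest of the *Mtm1* KO group. The part of these markers in the members' values was not tested. Log2 fold changes of *Ighm*, *Cd79b* and *Cd74* between *Mtm1* KO and WT, and between *Mtm1* KO + TAM and *Mtm1* KO, are also given without this library. Group means and list medians are given only with it.

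Other immunoglobulin constant genes were near 0. Of 7 with a row, 3 (*Ighg1*, *Ighg3* and *Ighe*, named after their values were seen) had no count in any library. *Ighg2c*, the constant region of an IgG, had 0 to 4 counts in WT and WT + TAM, 6 to 14 in the *Mtm1* KO libraries used and 4 to 25 in *Mtm1* KO + TAM. It was tested in 1 pairwise comparison, *Mtm1* KO + TAM against *Mtm1* KO, where its log2 fold change was 0.09 (standard error 0.61, edgeR adjusted p = 0.991).

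The plasma cell list had 6 tested genes and 0 called in any comparison by edgeR's quasi-likelihood test, with 2 at an unadjusted p under 0.05 between *Mtm1* KO and WT, 2 between WT + TAM and WT and 3 in either comparison of *Mtm1* KO + TAM with a WT group. *Xbp1*, a transcription factor of secretory cells that muscle also expresses, had 1642, 1827 and 1608 counts in WT and 2470 to 3083 in WT + TAM. Its log2 fold change between WT + TAM and WT was 0.80 (standard error 0.13, edgeR adjusted p = 0.0289), which did not pass 0.01. *Sdc1*, which encodes syndecan-1, had -0.30 in the same comparison (0.19, adjusted p = 0.612). *Igj*, which encodes the chain that joins IgM into pentamers, had 23, 8 and 0 counts in WT, 6 to 13 in WT + TAM, 2 to 5 in *Mtm1* KO and 2 to 8 in *Mtm1* KO + TAM. The WT + TAM libraries lay above those of *Mtm1* KO, and WT spanned the range of both.

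None of the 6 B cell progenitor genes passed the filter on low counts. Their summed counts were 2 to 16 in WT, 6 to 12 in WT + TAM, 13 to 112 in *Mtm1* KO and 8 to 17 in *Mtm1* KO + TAM, with the highest value in KO replicate 10. *Il7r*, an interleukin receptor, and *Vpreb1*, a surrogate light chain, had the highest means of the list, at 6.00 and 5.21 counts over the 14 libraries.

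The genes downstream of the B cell receptor, many of which other leukocytes share, were tested as a list of 17. edgeR's quasi-likelihood test called 0 in any comparison, with 7 at an unadjusted p under 0.05 between *Mtm1* KO and WT, 3 between WT + TAM and WT, 3 between *Mtm1* KO + TAM and *Mtm1* KO, 6 between *Mtm1* KO + TAM and WT and 10 of 16 between *Mtm1* KO + TAM and WT + TAM. The median log2 fold change was 0.45 between *Mtm1* KO and WT, with 12 of 17 higher, and -0.10 between WT + TAM and WT, with 6 of 17 higher. *Cd81*, a tetraspanin of the B cell coreceptor that is widely expressed, had 0.51 between *Mtm1* KO and WT (standard error 0.11, edgeR adjusted p = 0.0215). *Bcl10*, an adaptor between the receptor and NF-kappaB, had 0.47 between *Mtm1* KO + TAM and WT + TAM (standard error 0.11, adjusted p = 0.0123).

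The MHC class II pathway, in which *Cd74* acts, held the list genes other than muscle genes that passed the test. *H2-Aa*, which encodes an MHC class II alpha chain, rose in *Mtm1* KO against WT. It had 777, 512 and 837 counts in WT against 1408, 2371 and 2780 in *Mtm1* KO, with no overlap. The log2 fold change was 1.38 (standard error 0.25, edgeR adjusted p = 0.00943), and this was the 1 list gene of 87 tested that was called (1.15%, against 3.60% of all tested genes). The call was lost without WT replicate 2, 3 or 4 or without KO replicate 10 or 11, at edgeR adjusted p values of 0.0240 to 0.0334, with log2 fold changes of 1.18 to 1.51, and in 1 fit of all 4 groups (adjusted p = 0.0144).

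Between *Mtm1* KO + TAM and WT, 3 MHC class II genes rose. They were among 5 called of 88 tested list genes (5.68%, against 7.70% of all tested genes), and the other 2 were muscle genes. *Ctss*, cathepsin S, a protease that cuts the invariant chain, had 317, 293 and 339 counts in WT and 821, 785, 1380 and 645 in *Mtm1* KO + TAM (log2 fold change 1.15, standard error 0.20, edgeR adjusted p = 0.00322). *H2-Aa* had 1696, 1651, 1685 and 1252 counts in *Mtm1* KO + TAM (0.81, 0.16, adjusted p = 0.00613). *H2-Ab1*, the beta chain partner of *H2-Aa*, had 853, 608 and 879 in WT and 1625, 1794, 1704 and 1268 in *Mtm1* KO + TAM (0.69, 0.14, adjusted p = 0.00705). None of the 3 overlapped between the groups. The *Ctss* call was lost without WT replicate 2, 3 or 4, the *H2-Ab1* call without any of these or KO_TAM replicate 13, 14 or 15, and the *H2-Aa* call without WT replicate 2 or 3 or KO_TAM replicate 13, 14 or 15. All 3 calls were also lost in 1 fit of all 4 groups, and those of *H2-Aa* and *H2-Ab1* with all 16 libraries.

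Between *Mtm1* KO + TAM and WT + TAM, *H2-Eb1*, another class II beta chain, rose from 600, 200, 390 and 392 counts to 1488, 1553, 1670 and 1046 (log2 fold change 1.41, standard error 0.27, edgeR adjusted p = 0.00592), a call lost without WT_TAM replicate 7 or 8 or without KO_TAM replicate 13, 14 or 15. Of 83 list genes tested there 4 were called (4.82%, against 6.72% of all tested genes), and the other 3 were muscle genes. The MHC class II list as a whole had a median log2 fold change of 1.08 between *Mtm1* KO and WT (12 of 13 higher), 0.82 between *Mtm1* KO + TAM and WT + TAM (10 of 13) and 0.61 between *Mtm1* KO + TAM and WT (9 of 13), beside medians of 0.02, -0.01 and -0.00 over all tested genes. The medians were -0.36 between *Mtm1* KO + TAM and *Mtm1* KO (2 of 13 higher, 0 called, 3 at an unadjusted p under 0.05) and -0.02 between WT + TAM and WT (6 of 12 higher, 0 called, 1 at an unadjusted p under 0.05), by edgeR.

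Values differed within the pathway. *Ciita*, the master regulator of class II genes, had a log2 fold change of 1.20 between *Mtm1* KO and WT (standard error 0.47, edgeR adjusted p = 0.127). *Rfx5*, *Rfxap* and *Rfxank*, which bind class II promoters and are expressed widely, had 0.07, -0.41 and 0.03, with edgeR adjusted p values of 0.867, 0.0768 and 0.919. These 4 genes are named after their values were seen.

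**Figure D4:**
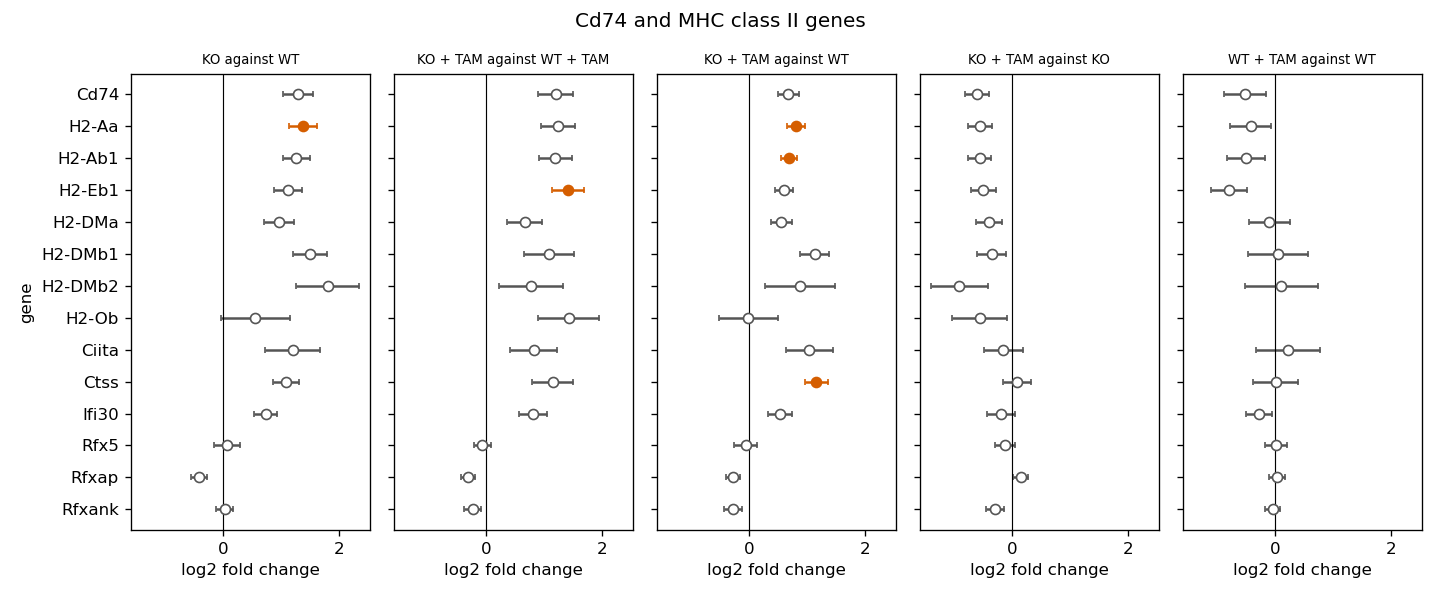
Log2 fold changes with bars of 1 standard error of *Cd74* and 13 MHC class II genes in 5 comparisons by edgeR, where filled points passed an adjusted p of 0.01, open points did not, and *Cd74* is shown as a description. *H2-Aa* is filled at 1.38 in the first panel, *H2-Eb1* at 1.41 in the second, and *H2-Aa*, *H2-Ab1* and *Ctss* in the third, with none filled in the comparisons of treated and untreated mice of 1 genotype.

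Genes with a profile most like that of *Ighm* were sought among 13412 genes with a mean of at least 20 counts, as the root mean square difference of log2 CPM over the 14 libraries, each gene centred on its own mean. The measure uses the columns that chose *Ighm*, so it is a description. The 8 nearest genes were *Rmi2* (0.584), *0610040J01Rik* (0.595), *Gm12199* (0.651), *Kcng4* (0.673), *Amd1* (0.720), *Crybb1* (0.725), *Nrep* (0.754) and *BC049352* (0.766), and the median over all genes was 1.53. Of the other members, *Cd74* stood at 2.05 (rank 12887) and *Cd79b* at 2.18 (rank 13088). *Cd79b* reached the mean of 20 counts through KO replicate 10, with 24.2 over the 14 libraries and 14.4 over the other 13. The centred log2 CPM of *Ighm* itself had an SD of 1.56.

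None of the 8 is a B cell marker of the lists used here. The floor of 20 counts kept *Igkc*, *Cd79a*, *Ms4a1* and every low-count gene of those lists out of the search, so nothing is read from this. *Kcng4*, a modifier subunit of voltage-gated potassium channels, averaged 71.5 CPM in WT, 26.8 in WT + TAM, 15.2 in *Mtm1* KO and 8.52 in *Mtm1* KO + TAM. *Amd1*, an enzyme of polyamine synthesis, averaged 421.9, 107.5, 63.6 and 55.3 CPM in the same order, but 78.1% of its 50-base stretches occur elsewhere, mostly in *Amd2*, so its counts are uncertain. *Rmi2*, a subunit of a complex that resolves recombined DNA, averaged 10.5, 4.44, 2.24 and 1.22 CPM. *Gm12199*, which lies inside *Adamts2* on the other strand, averaged 11.4, 2.05, 1.11 and 0.440 CPM. *Nrep* averaged 463.9, 282.0, 151.2 and 118.8 CPM. The means of *Crybb1*, a lens crystallin gene, were 3.82, 1.37, 1.66 and 0.622 CPM, and those of *BC049352* 1.99, 1.24, 0.854 and 0.190.

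**Figure D5:**
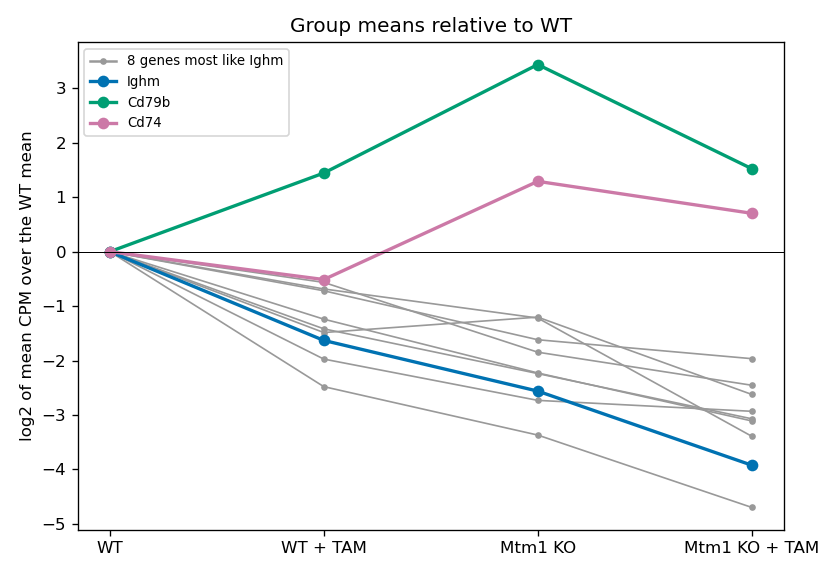
Log2 of the group mean in CPM over the WT mean for *Ighm*, the 8 genes most like it, *Cd79b* and *Cd74*, over the 14 libraries used, with lines only joining the 4 groups of each gene. *Ighm* ends at -3.92 in *Mtm1* KO + TAM, while *Cd79b* stands at 3.44 and *Cd74* at 1.29 in *Mtm1* KO.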

How the data were processed

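The authors aligned reads from TruSeq libraries of total RNA to GRCm38 with STAR and counted them per gene with HTSeq. The submitters' processing notes name bcl2fastq 2.17, STAR 2.5.0c and Cufflinks 2.2.1. For the annotation and the strand setting of the counting, nothing is given in the sources used. The deposited values are raw counts and, in a second table, RPKM made by the authors.

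Counts of the 14 libraries the study used were tested with edgeR 4.0.16 (quasi-likelihood test, TMM, filterByExpr with a minimum count of 10 and a minimum total of 15, R 4.3.3), only the groups compared being fitted, with the Benjamini-Hochberg adjusted p over all tested genes at most 0.01, the study's threshold. The difference between tamoxifen effects used all 4 groups. Standard errors given for edgeR are the absolute log2 fold change divided by the square root of the test's F statistic. DESeq2 1.42.0 and limma 3.58.1 on log2(RPKM + 0.1) or log2(RPKM + 1) were alternatives. Code was tested on simulated data. CPM used TMM over the 16 libraries, and profiles TMM over the 14 with a prior count of 2.

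The members and the 16 lists (154 genes, 152 with a row) were chosen with earlier results of these data known. Named genes were the members, up to 4 called genes per list and comparison with the lowest p or otherwise the 2 with the highest mean count, the 3 highest V segments of either chain and the 8 genes most like *Ighm*. The lists were other B cell, other immunoglobulin constant, plasma cell, B cell progenitor, B cell receptor signaling, MHC class II, T cell, NK cell, macrophage, dendritic cell, neutrophil, pan-leukocyte, red blood cell, lymphoid stroma, fat cell and skeletal muscle. Positions, shared stretches and sequences came from GENCODE vM21 on GRCm38. Library totals of 25116179 to 29847222 set the precision, and a count of 0 allows 3 counts, for counting error only.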

Additional observations from a re-analysis of the deposited data

Results flagged for a closer look

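Each group was searched, with all 4 of its libraries, for a highest or lowest value set apart from the rest by a gap, as a share of the group's range, above Dixon's 95% critical value. Of 44 sets of values 10 were set apart. The sets share libraries and several hold few counts, so no chance rate applies to them and nothing is read from the number. In *Mtm1* KO it was KO replicate 10 each time, with *Cd79a* at 5.45 CPM, *Cd79b* at 4.96 CPM, the summed neutrophil list at 101 CPM, the summed heavy chain V segments at 0.294 CPM and the summed kappa V segments at 0.914 CPM. In WT the kappa V segments stood apart at 1.10 CPM in WT replicate 2, and *Ms4a1* at 0.249 CPM in the library labelled WT replicate 1. *Ms4a1* was also set apart at 0.0418 CPM in WT + TAM and at 0.211 CPM in *Mtm1* KO + TAM, and *Cd79a* at 0.120 CPM in *Mtm1* KO + TAM, values that rest on 1, 7 and 4 counts. *Ighm* and *Cd74* were set apart in no group.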

How the results depend on the processing

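The count of list genes called depended on the tool, the scaling and the filter. With DESeq2 it was 19 between *Mtm1* KO and WT (1 by edgeR's quasi-likelihood test), 2 between WT + TAM and WT (0), 23 between *Mtm1* KO + TAM and WT (5) and 15 between *Mtm1* KO + TAM and WT + TAM (4). In the same order of comparisons, without a filter it was 15, 1, 15 and 8, and at an adjusted p of 0.05 it was 20, 2, 26 and 19. With library size only it was 9 between *Mtm1* KO and WT, 15 between *Mtm1* KO + TAM and WT and 16 between *Mtm1* KO + TAM and WT + TAM, where the median of all genes moved to 0.334, 0.278 and 0.266. For the same 3, limma on log2(RPKM + 0.1) gave 6, 11 and 9. It was 5 and 8 with log2(RPKM + 1), and 3 and 8 in 1 fit of all 4 groups, for the first and the last of these. All 16 libraries gave 2 between *Mtm1* KO + TAM and WT. Leaving out 1 library gave 0 to 4, 1 to 8 and 1 to 6 in the 3 comparisons (0 without WT replicate 3 or 4 or KO replicate 10 or 11, 1 without WT replicate 3, 8 without KO_TAM replicate 16, and 1 without WT_TAM replicate 7 or 8 or KO_TAM replicate 14). The calls over all genes moved too. Under the alternatives above with more list genes called they numbered 756 to 1885 against 531 between *Mtm1* KO and WT (1678 by DESeq2), 80 to 214 against 19 between WT + TAM and WT, 1494 to 2993 against 1150 between *Mtm1* KO + TAM and WT (2375 by DESeq2) and 1243 to 2476 against 979 between the treated groups (1995 by DESeq2). With 1 library left out they numbered 182 to 363, 531 to 1246 and 424 to 921 in the 3 comparisons. The cause was not tested. Between *Mtm1* KO + TAM and *Mtm1* KO, and for the difference between tamoxifen effects, 0 were called under every alternative run.

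The log2 fold change of *Ighm* was negative in all 5 comparisons under each of the 14 or 15 alternatives. With log2(RPKM + 1) it was -3.43 between *Mtm1* KO + TAM and WT and -1.85 between *Mtm1* KO + TAM and WT + TAM. That setting has a pseudocount and no TMM scaling, and the part of either was not tested. The ranges for *Ighm* were -3.09 to -2.23 between *Mtm1* KO and WT, -1.71 to -0.85 between *Mtm1* KO + TAM and *Mtm1* KO and -1.87 to -1.51 between WT + TAM and WT. *Cd74* kept its sign in each. *Cd79b* between *Mtm1* KO + TAM and WT + TAM ran from -0.49 to 0.31. The study states that the samples came from littermates, but the labels used here name no litter, so no paired analysis was run. Counts of *Igkc*, *Cd79a* and *Ms4a1* were too low at this depth for a fold change.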

Other observations

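Lists of other leukocyte genes had positive medians between *Mtm1* KO and WT, with no gene of them called at an adjusted p of 0.01 in any comparison by edgeR's quasi-likelihood test. A gene of low counts can pass the filter through the group where it is high, so the medians are a description. The pan-leukocyte list (5 genes) had a median log2 fold change of 0.97 between *Mtm1* KO and WT, with 4 at an unadjusted p under 0.05. Its gene *Coro1a*, an actin-binding protein of leukocytes, had 1.38 (standard error 0.29, edgeR adjusted p = 0.0187), and *Laptm5*, a lysosomal membrane protein, had 0.97 (0.25, adjusted p = 0.0367). The macrophage list (9 genes) had a median of 0.48, with 4 at an unadjusted p under 0.05, and its genes *Lyz2*, lysozyme, and *Csf1r*, the receptor for macrophage colony-stimulating factor, had 0.53 (0.12, adjusted p = 0.0242) and 0.48 (0.16, adjusted p = 0.0873). The dendritic cell list (7 genes) had a median of 0.80, with 3 at an unadjusted p under 0.05, and *Zbtb46* in it had 0.17 (edgeR adjusted p = 0.638) and *Cd209a* 0.79 (adjusted p = 0.419).

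Between WT + TAM and WT, the medians of these 3 lists were -0.07, -0.11 and -0.12, with 0 genes called and 0 at an unadjusted p under 0.05 by edgeR. Of the dendritic cell list 4 genes were tested there, so that median covers fewer genes than the one for *Mtm1* KO against WT. Of 17 T cell genes 5 were tested between *Mtm1* KO and WT, with 0 called and 3 at an unadjusted p under 0.05 by edgeR. The median was 1.14, with 3 of the 5 higher. This median too covers only the genes that passed the filter. The 2 genes of the list with the highest mean counts were the 2 lower ones. *Cd247*, a chain of the T cell receptor complex, had -1.28 (standard error 0.42, edgeR adjusted p = 0.0778), and *Cd28*, a costimulatory receptor, -0.56 (0.40, adjusted p = 0.386). In the NK cell list *Klrk1* had 1.12 (0.58, adjusted p = 0.233) and *Nkg7* was not tested. The red blood cell list had 5 tested genes and 0 called in any comparison by edgeR, with 0 at an unadjusted p under 0.05, its genes *Hba-a1* and *Hbb-bs* at 0.40 and -0.14 between *Mtm1* KO and WT. Of the neutrophil list, 1 to 3 genes were tested in a comparison and 0 called, with *S100a9* at -5.04 between *Mtm1* KO + TAM and *Mtm1* KO (standard error 1.53, edgeR adjusted p = 0.393), where KO replicate 10 held 922 of the *Mtm1* KO counts. The 5 lymphoid stroma genes, *Cxcl13* and *Madcam1* among them, passed the filter in no comparison and summed to 0 to 12 counts per library used.

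The fat cell list had 6 tested genes and 0 called in any comparison, with 0 at an unadjusted p under 0.05 by edgeR, and its summed level varied within WT from 277.8 to 1859 CPM. The skeletal muscle list (6 genes) summed to 140290 to 200020 CPM in WT and 152670 to 164480 in WT + TAM, against 82247 to 97752 in *Mtm1* KO and 72881 to 107670 in *Mtm1* KO + TAM, so the knockout groups did not overlap the others. Its median log2 fold change between *Mtm1* KO and WT was -0.86, with 0 genes called by edgeR and 5 at an unadjusted p under 0.05. Of the list, *Myh4* and *Pvalb* fell in *Mtm1* KO + TAM against WT, and these and *Ckm* fell against WT + TAM, named after their values were seen.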
